A study of Homo sapiens with 6 samples.

Results

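The proteasome is the large protease that degrades ubiquitin-tagged proteins in the cytosol and nucleus. Its 20S core particle is a barrel of alpha subunits, which form the gate, and beta subunits, of which PSMB5, PSMB6 and PSMB7 carry the catalytic sites. PSMB8, PSMB9 and PSMB10 replace these in the immunoproteasome, a form induced by interferon that favours peptides for MHC class I. The 19S regulatory particle caps the core, with a base of ATPases that unfold the substrate and a lid that removes ubiquitin, while the activators PSME1 to PSME4 open the gate without ubiquitin. Secretory epithelia such as that of the pancreas also use it for misfolded proteins taken back from the endoplasmic reticulum.

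The transcripts described here are those of 39 proteasome genes, chosen as the listed 20S, 19S and activator genes (PSMA1 to PSMA7, PSMB1 to PSMB10, PSMC1 to PSMC6, 11 PSMD genes, PSME1 to PSME4 and the assembly chaperone POMP) from the 20263 genes of the deposited count table. They fall into 7 alpha subunits, 7 constitutive beta subunits, 3 immunoproteasome beta subunits, 6 ATPases of the 19S base, 3 other base subunits, 8 lid subunits, 4 activators and POMP. All 39 were found, and all 39 passed the filter on low counts that left 13769 genes for testing.

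RNA was sequenced from AsPC-1, an established human pancreatic adenocarcinoma cell line of ductal origin, in 6 libraries. Cells received 1 of 2 siRNAs against HMOX1 (groups HMOX1si1 and HMOX1si2) or a negative control siRNA (group siControl), with 2 libraries in each group. Every group was transfected with siRNA by the jetPRIME reagent, so no library represents untouched cells, and a single cell line was used. HMOX1 encodes heme oxygenase-1, which cleaves heme, and the study asked how its depletion changes gene expression in relation to proliferation. Each library held between 36144330 and 45068660 counts. The labels do not say that the 2 libraries of a group came from separate cultures, so the p-values reflect no more than the spread between these libraries.

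HMOX1 itself, the check of the labels, had 2.43 and 2.80 CPM (counts scaled to a common library size) in HMOX1si1 cells, 1.27 and 1.17 CPM in HMOX1si2 cells and 9.06 and 8.52 CPM in siControl cells. The log2 fold change against siControl was −1.75 with HMOX1si1 (adjusted p = 0.00618) and −2.85 with HMOX1si2 (adjusted p = 0.00951, edgeR's quasi-likelihood test, p adjusted over all genes by Benjamini and Hochberg). Without the first and without the second siControl library, the adjusted p was 0.0451 and 0.0637 with HMOX1si1 and 0.0778 and 0.0960 with HMOX1si2, and the log2 fold changes stayed between −1.71 and −2.89. All 10 epithelial markers, such as EPCAM and KRT19, were above 1 CPM in every library, with a summed level of 11100 CPM in both HMOX1si1 libraries, 14700 to 15000 CPM in HMOX1si2 and 14800 to 16700 CPM in siControl. Most of this sum was KRT8 (3770 to 6610 CPM), KRT19 (2110 to 3730 CPM) and KRT18 (2050 to 3160 CPM). These keratins had fewer counts in both HMOX1si1 libraries than in both siControl libraries. CDH1 (74.9 to 142 CPM) went the other way, and EPCAM stayed at 613 to 686 CPM over all libraries. Of the markers of other cell types, 2 of 5 for fibroblasts and 2 of 5 for leukocytes were above 1 CPM in all libraries, and none of those for endothelial, acinar or endocrine cells. The summed fibroblast markers were 91.2 to 95.4 CPM in HMOX1si1, 78.8 to 86.9 CPM in HMOX1si2 and 119 to 125 CPM in siControl. That sum was mostly LUM (73.6 to 121 CPM). COL1A1 (2.52 to 4.63 CPM) went the other way with HMOX1si2, with 201 and 179 counts against 105 and 112 in siControl. The summed leukocyte markers were 171 to 201 CPM in HMOX1si1, 121 to 152 CPM in HMOX1si2 and 126 to 146 CPM in siControl. They were mostly CD68 (87.6 to 163 CPM) and LYZ (22.7 to 53.2 CPM), and the other markers of both lists stayed below 1 CPM. CD3E, CPA1 and INS had no count in any library. The part of these markers in the results was not tested.

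Proteasome genes are known targets of NFE2L1 (also called NRF1), which binds the antioxidant response element with a small MAF partner, and the immunoproteasome genes are known targets of interferon regulatory factors. The sequences shown here are the sites of these kinds in the members' promoters, so that they can be read beside the values that follow. RefSeq promoter windows (GRCh38.p14, 250 bases before to 50 bases after a transcription start) were matched by symbol for 34 of the 39 members and not for PSMA7, PSMB1, PSMB6, PSMB7 and PSMD4. Both strands were searched for TGACNNNGC, the core of the antioxidant response element. The motif stood in 11 of the 34 members (32.4%), against 18.0% of the 15272 genes of the table with a window. By window, it was in 26.8% of the members' windows and in 13.3% of all 35116 windows of that length. The 6 sites that lie before the start on the gene's own strand are given 5′ to 3′ with the motif in capitals:
PSMA4 (chr15:78540650-78540678, plus strand): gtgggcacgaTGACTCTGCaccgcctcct
PSMB3 (chr17:38752627-38752655, plus strand): gcctccgtttTGACTTTGCaaccaaacta
PSMD3 (chr17:39980760-39980788, plus strand): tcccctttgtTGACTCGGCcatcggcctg
PSMD12 (chr17:67366724-67366752, minus strand): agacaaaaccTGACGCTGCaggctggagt
PSME1 (chr14:24136098-24136126, plus strand): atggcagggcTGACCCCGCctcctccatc
PSME2 (chr14:24146767-24146795, minus strand): ccctggactgTGACCCAGCcagcaccgcc

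The core of the interferon-stimulated response element, the word TTTC repeated with 2 bases of any kind between the copies, was searched on both strands. It was in 6 of the 34 members (17.6%), against 4.20% of the genes of the table with a window, and in 14.6% of the members' windows against 3.57% of all windows. This motif and CCAAT, the box bound by NF-Y, were added with results of these data known. The constitutive core subunits PSMA4 and PSMB4 carried the TTTC repeat with other bases between the copies. In 4 members the site had the same 10 letters, and all 4 belong to the immunoproteasome or its PSME1 and PSME2 activator; they are given 5′ to 3′ with the motif in capitals, each on the strand that carries it:
PSMB8 (chr6:32844032-32844061, minus strand): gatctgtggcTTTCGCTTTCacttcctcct
PSMB10 (chr16:67936852-67936881, plus strand): tacttcctgcTTTCGCTTTCgcctttaccc
PSME1 (chr14:24136189-24136218, plus strand): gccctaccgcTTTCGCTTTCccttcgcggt
PSME2 (chr14:24146619-24146648, plus strand): tcgcccgggcTTTCGCTTTCactccccagg

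CCAAT on either strand was in 17 of the 34 members (50.0%), against 42.5% of the genes of the table with a window, and in 41.5% of the members' windows against 34.6% of all windows. Sites of different motifs did not overlap in any member. The windows of PSMA4 and PSMB2, the members whose transcripts fell on average without a gene model that shares their exons, are shown whole. PSMA4 has 3 windows in RefSeq, and the one shown holds TGACNNNGC and, on the other strand, CCAAT (read as ATTGG here), both in capitals. Of the PSMA4 windows not shown, chr15:78540155-78540454 holds the TTTC repeat and chr15:78540194-78540493 none of these motifs. PSMB2 has 1 window, with CCAAT in capitals across the start and no TGACNNNGC:
PSMA4 (chr15:78540536-78540835, plus strand): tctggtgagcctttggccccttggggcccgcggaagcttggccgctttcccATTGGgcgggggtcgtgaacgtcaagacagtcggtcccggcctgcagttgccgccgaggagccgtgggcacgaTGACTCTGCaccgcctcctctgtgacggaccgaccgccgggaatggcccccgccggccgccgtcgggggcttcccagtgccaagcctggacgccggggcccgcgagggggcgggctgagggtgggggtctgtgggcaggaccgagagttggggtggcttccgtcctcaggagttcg
PSMB2 (chr1:35641477-35641776, minus strand): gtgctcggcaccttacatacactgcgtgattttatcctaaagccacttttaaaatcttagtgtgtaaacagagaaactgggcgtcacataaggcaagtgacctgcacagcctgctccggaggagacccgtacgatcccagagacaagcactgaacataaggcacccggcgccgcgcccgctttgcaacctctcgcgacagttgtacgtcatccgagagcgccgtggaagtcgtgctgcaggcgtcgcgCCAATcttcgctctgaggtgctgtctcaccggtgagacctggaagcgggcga

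Proteasome transcripts were abundant in AsPC-1 cells and spanned a wide range of levels. Levels between genes are compared as CPM per kilobase of transcript. In siControl cells the highest levels were those of PSMA7 (alpha subunit, 282 CPM per kilobase), PSMB4 (beta subunit of the core's inner ring, 256), PSME1 (activator, 231) and PSMD4 (ubiquitin receptor of the 19S base, 164). The lowest levels in siControl cells were those of the lid subunit PSMD12 (9.96 CPM per kilobase), PSME4 (the nuclear activator PA200, 14.7) and the ATPase PSMC1 (17.3). These ranks rest on the annotated transcript lengths, 4406, 7099 and 4448 bases. In CPM, PSMC1 (77.0) stood above the ATPase PSMC6 (39.7) in siControl cells. The median level was 74.9 CPM per kilobase over the 14 alpha and constitutive beta subunits and 36.5 over the 17 subunits of the 19S particle, and 8.33 over all genes tested. The immunoproteasome subunits PSMB10, PSMB8 and PSMB9 stood at 127, 98.7 and 96.7 CPM per kilobase in siControl cells, which lay above the levels of PSMB5 (58.2) and PSMB6 (64.7) and below that of PSMB7 (160).

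The first comparison asks which proteasome transcripts changed with HMOX1si1. Of the 39 members, 3 fell and none rose past an adjusted p of 0.05, and all 3 belong to the core particle: PSMA4, PSMB2 and PSMB4. That is 7.69% of the members, against 10.0% of all genes tested that were called, 5.01% that fell and 5.02% that rose, so the share of calls was near the background. No member rose by edgeR's quasi-likelihood test, and 8 members were under an unadjusted p of 0.05 (20.5%, against 30.8% of all genes). DESeq2 called 7 of the 39 members, 6 lower and 1 higher. Over all genes it called 2590 of the 20263 in the table, 1247 lower and 1343 higher. These 20263 include genes with few or no counts. Each library had 14999 to 15220 genes above 0, and 13769 passed edgeR's filter, all 39 members among them. DESeq2 counts over the 20263 are therefore not on the members' footing, here and for each later comparison and list. The log2 fold change was below 0 in 34 of 39 members (87.2%, against 50.1% of all genes), with a median of −0.22 over the members and 0.00 over all genes. Both HMOX1si1 libraries lay below both siControl libraries for 23 members (59.0%, against 31.9% of all genes) and above both for 2 members (5.13%, against 31.9%). In bulk samples such as these, fewer cells of a kind and less RNA per cell cannot be told apart.

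With HMOX1si2, 2 members fell and none rose: the alpha subunits PSMA2 and PSMA4. They are 5.13% of the members, against 5.73% of all genes called, 2.67% that fell and 3.06% that rose. Here 12 members were under an unadjusted p of 0.05 (30.8%, against 25.9% of all genes), and DESeq2 called 5, all lower. Over all 20263 genes DESeq2 called 1845, 882 lower and 963 higher. The log2 fold change was below 0 in 35 of 39 members (89.7%, against 49.8% of all genes), with a median of −0.27 over the members and 0.00 over all genes. Both HMOX1si2 libraries lay below both siControl libraries for 22 members (56.4%, against 28.1% of all genes), and for no member above both (28.9% of all genes).

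Averaged over both siRNAs, 3 members fell and none rose: PSMA2, PSMA4 and PSMB2, or 7.69% of the members against 10.1% of all genes called, 4.93% that fell and 5.16% that rose. In this average the log2 fold change was below 0 in 35 of 39 members (89.7%, against 50.5% of all genes), with a median of −0.25. An unadjusted p under 0.05 was found for 14 members (35.9%, against 31.3% of all genes). DESeq2 called 7 members, all lower, and over all 20263 genes it called 2612, 1258 lower and 1354 higher. All 4 HMOX1 siRNA libraries lay below both siControl libraries for 14 members (35.9%, against 18.2% of all genes), and above both for none (18.7% of all genes). These 14 were PSMA2, PSMA3, PSMA4, PSMA5 and PSMA6, PSMB1, PSMB2, PSMB3 and PSMB4, PSMC1, PSMC2 and PSMC4, PSMD1, and POMP. The comparisons with HMOX1si1, with HMOX1si2 and their average share the siControl libraries, so they are not independent of each other. Each of the member calls against siControl ended when either siControl library was left out, with adjusted p from 0.0548 to 0.219 over those fits.

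**Figure D1:**
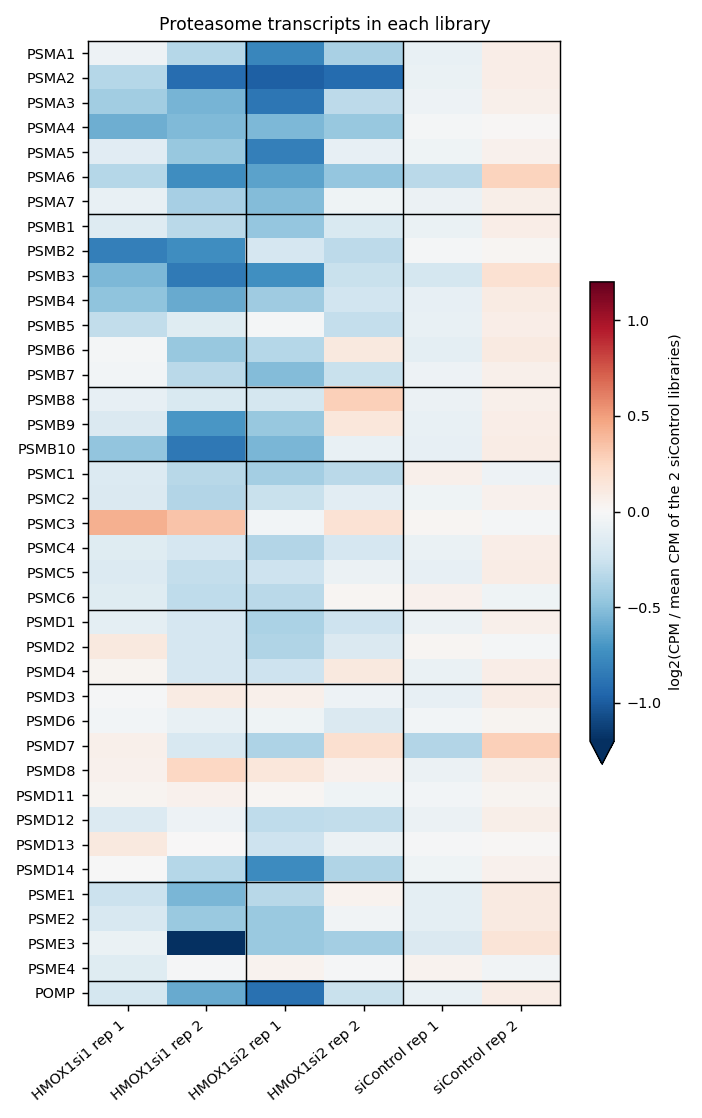
Log2 ratio of each library of the HMOX1si1, HMOX1si2 and siControl groups to the mean of the siControl libraries, for the 39 members by subgroup; the colour scale is cut at its lower end. The alpha and constitutive beta rows are mostly below 0 in all 4 HMOX1 siRNA libraries, and the lid rows lie nearer to 0 in the median, with PSMD14 (−0.54 with HMOX1si2) the lowest of them.

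The alpha subunits, which form the outer rings and the gate of the core, had the lowest fold changes of the subgroups with several members, with a median of −0.52 on average over both siRNAs, and all 7 were below 0. PSMA4 had 48.9 and 50.6 CPM in HMOX1si1 cells, 50.3 and 53.5 CPM in HMOX1si2 cells and 72.3 and 74.2 CPM in siControl cells. All 4 HMOX1 siRNA libraries lay below both siControl libraries, and the libraries of each group lay close together. By edgeR's quasi-likelihood test PSMA4 fell to 68.0% of the siControl level with HMOX1si1 (log2 fold change −0.56, SE 0.09, adjusted p = 0.0211) and to 70.9% with HMOX1si2 (−0.50, SE 0.09, adjusted p = 0.0374). The gene lies on chromosome 15 at chr15:78540405-78552419 (GENCODE 29, GRCh38, plus strand), shares no exon with another gene, and carries the TGACNNNGC and CCAAT sites printed for it. With single libraries left out, its average log2 fold change stayed between −0.50 and −0.55, while the adjusted p ranged from 0.0279 to 0.126 and was over 0.05 without either siControl library or either HMOX1si1 library. Its call with HMOX1si2 ended without any 1 of the 6 libraries (adjusted p 0.0690 to 0.162).

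PSMA2 had 106 and 71.3 CPM in HMOX1si1 cells, 68.0 and 70.9 CPM in HMOX1si2 cells and 127 and 142 CPM in siControl cells. The HMOX1 siRNA libraries all lay below both siControl libraries, with the first HMOX1si1 library nearest to them. By edgeR's quasi-likelihood test it fell to 51.6% of siControl with HMOX1si2 (log2 fold change −0.95, SE 0.19, adjusted p = 0.0453), and with HMOX1si1 it was at 65.8% (−0.60, SE 0.19, adjusted p = 0.0930). With HMOX1si1, DESeq2 called 2 of the 7 alpha subunits, where edgeR called 1. PSMA2 (chr7:42916857-42932223, minus strand) shares 781 exon bases on its own strand with the gene model ENSG00000256646. That model held 4 and 6 counts in HMOX1si1 cells, 5 and 2269 counts in HMOX1si2 cells and 8 and 0 counts in siControl cells, so that 1 HMOX1si2 library stands apart. With the counts of both models summed, the PSMA2 log2 fold change with HMOX1si2 was −0.51 (adjusted p = 0.326) and the average was −0.56 (adjusted p = 0.197), so the PSMA2 calls are uncertain. The HMOX1si2 call also ended with library totals in place of TMM scaling (adjusted p = 0.0559) and without either HMOX1si2 library (0.0906 and 0.159).

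**Figure D2:**
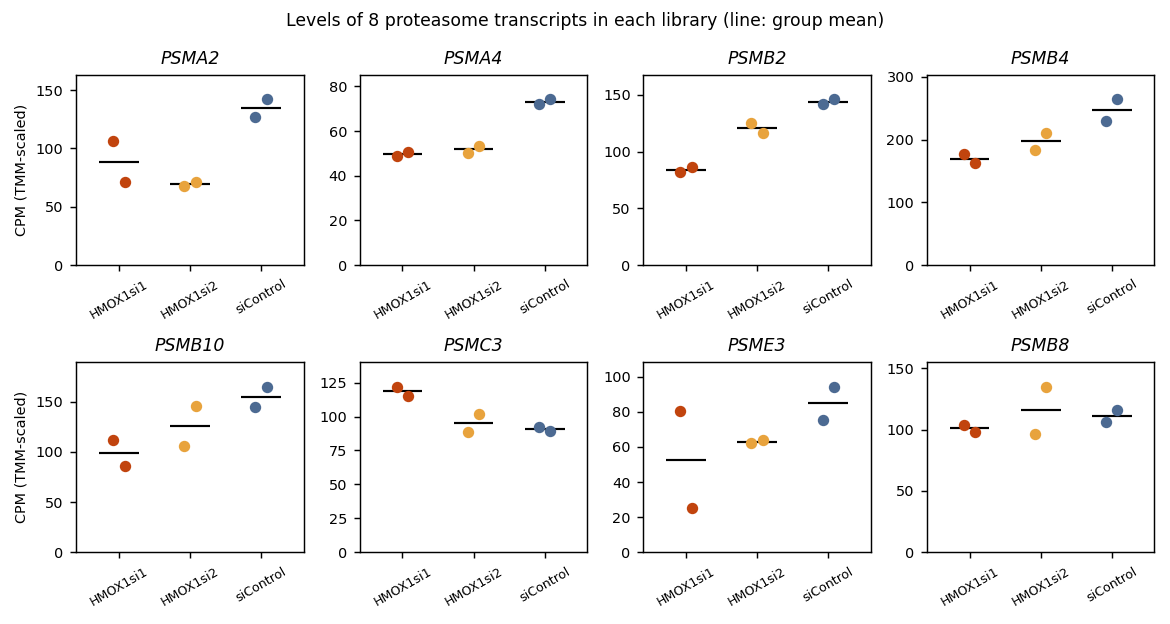
CPM of 8 members in each of the 2 libraries of HMOX1si1, HMOX1si2 and siControl cells, with a line at each group's mean. PSMA4 libraries lie at 48.9 to 53.5 CPM with the HMOX1 siRNAs and at 72.3 and 74.2 CPM in siControl, PSMC3 is highest with HMOX1si1, and PSME3 has 1 HMOX1si1 library at 25.0 CPM.

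The other alpha subunits did not pass edgeR's test in any comparison, while DESeq2 called PSMA1 with HMOX1si2 (adjusted p = 0.0253) and PSMA3 on average (adjusted p = 0.0268), both lower. Their average log2 fold changes ran from −0.25 for PSMA7 to −0.54 for PSMA6. PSMA3 had 40.3 and 36.6 CPM in HMOX1si1 cells, 29.4 and 43.3 CPM in HMOX1si2 cells and 51.5 and 56.0 CPM in siControl cells. Its HMOX1 siRNA libraries did not overlap the controls (average adjusted p = 0.0898). PSMA6 had 66.3 and 50.2 CPM in HMOX1si1 cells, 53.7 and 61.0 CPM in HMOX1si2 cells and 66.9 and 101 CPM in siControl cells. PSMA3 and PSMA6 were singled out after their values were seen, PSMA6 because it shares 919 exon bases on its strand with another gene model. That model held 395 and 265 counts in HMOX1si1 cells, 374 and 850 counts in HMOX1si2 cells and 922 and 214 counts in siControl cells. With both summed, the average log2 fold change of PSMA6 was −0.53 (adjusted p = 0.0846).

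The 7 constitutive beta subunits were also all below 0 with each siRNA, with a median average log2 fold change of −0.28. PSMB2, a beta subunit without a catalytic site of its own, had 81.6 and 86.1 CPM in HMOX1si1 cells, 125 and 116 CPM in HMOX1si2 cells and 142 and 146 CPM in siControl cells. The 3 groups did not overlap, and HMOX1si1 libraries were the lowest. With HMOX1si1 it fell to 58.2% of siControl (log2 fold change −0.78, SE 0.09, adjusted p = 0.0103, edgeR's quasi-likelihood test), the lowest adjusted p of any member. With HMOX1si2 it was at 83.7% (−0.26, SE 0.09, adjusted p = 0.150). PSMB2 lies at chr1:35599544-35641844 (minus strand) and shares no exon with another gene. Leaving out single libraries kept its HMOX1si1 log2 fold change between −0.75 and −0.82 and moved the adjusted p from 0.0146 to 0.0756, over 0.05 without either siControl or either HMOX1si1 library.

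PSMB4, whose product sits in the same ring, had 177 and 162 CPM in HMOX1si1 cells, 184 and 211 CPM in HMOX1si2 cells and 230 and 264 CPM in siControl cells. No HMOX1 siRNA library reached the siControl libraries. It fell to 68.7% of siControl with HMOX1si1 (log2 fold change −0.54, SE 0.12, adjusted p = 0.0443, edgeR's quasi-likelihood test) and was at 80.1% with HMOX1si2 (−0.32, SE 0.12, adjusted p = 0.166). The HMOX1si1 call also ended when library totals replaced TMM scaling (adjusted p = 0.0598) and without either HMOX1si1 library (0.126 and 0.227). The other 5 constitutive beta subunits had average log2 fold changes from −0.16 for PSMB6 to −0.59 for PSMB3, and none passed edgeR's test. DESeq2 called PSMB3 lower with HMOX1si1 (adjusted p = 0.0217) and on average (adjusted p = 0.0233). Of the 7 constitutive beta subunits, DESeq2 called 3 on average, where edgeR called 1.

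HMOX1si2 and HMOX1si1 differed in 1 member. PSMB2 was higher with HMOX1si2 by a log2 difference of 0.52 (SE 0.09, adjusted p = 0.0396), or 144% of the HMOX1si1 level. That is 2.56% of the members, against 3.62% of all genes called, 2.14% that were higher and 1.49% that were lower. No member was lower with HMOX1si2, and the difference was below 0 in 22 of 39 members (56.4%, against 49.5% of all genes). Only 2 members were under an unadjusted p of 0.05 (5.13%, against 20.6% of all genes). DESeq2 called 1 member, and 1367 of all 20263 genes. The PSMB2 difference kept its direction without each library in turn (0.47 to 0.58), and its adjusted p was then 0.0851 to 0.221. PSMC3 was the other member under the unadjusted threshold, with a difference of −0.32 (adjusted p = 0.162).

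**Figure D3:**
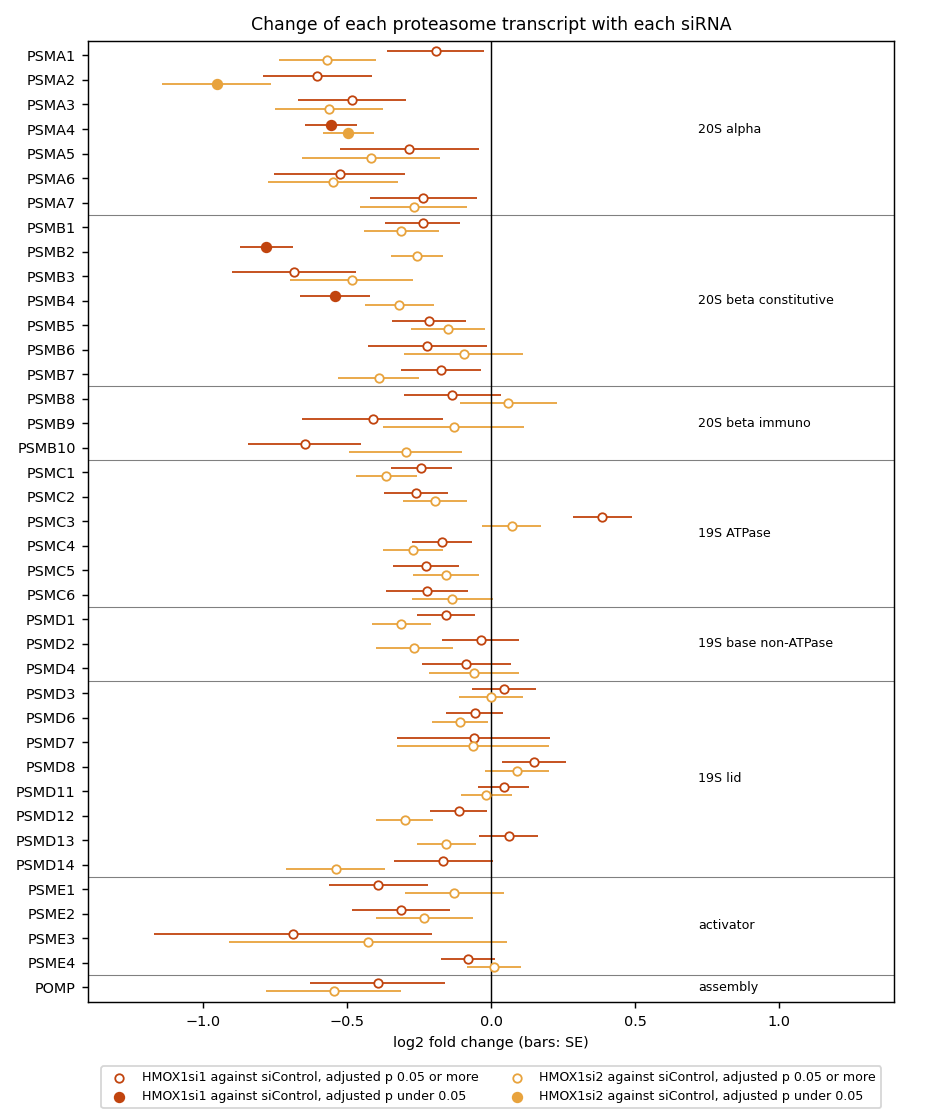
Log2 fold change of each member in HMOX1si1 and HMOX1si2 cells against siControl cells, with bars of 1 standard error from edgeR's fit and members grouped by subunit class; filled points passed an adjusted p of 0.05. PSMB2 (−0.78 with HMOX1si1) and PSMA2 (−0.95 with HMOX1si2) lie farthest below 0 for each siRNA, and PSMC3 (0.39 with HMOX1si1) farthest above.

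The catalytic subunits were compared with the immunoproteasome subunits that take their places. PSMB5 is the chymotrypsin-like subunit. PSMB5 had 61.4 and 68.2 CPM in HMOX1si1 cells, 73.8 and 61.8 CPM in HMOX1si2 cells and 70.9 and 79.6 CPM in siControl cells. PSMB8 had 104 and 98.0 CPM in HMOX1si1 cells, 96.2 and 135 CPM in HMOX1si2 cells and 106 and 116 CPM in siControl cells. PSMB8 is its counterpart. For both genes the HMOX1si1 libraries lay below the controls and the HMOX1si2 libraries overlapped them, with average adjusted p of 0.302 for PSMB5 and 0.881 for PSMB8 by edgeR's quasi-likelihood test. The level per kilobase of PSMB8 over PSMB5 was 1.95 and 1.65 in HMOX1si1 cells, 1.50 and 2.51 in HMOX1si2 cells and 1.72 and 1.68 in siControl cells, so that both siRNA groups spread on either side of the controls.

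PSMB6 is the caspase-like subunit. PSMB6 had 54.2 and 40.3 CPM in HMOX1si1 cells, 43.6 and 59.6 CPM in HMOX1si2 cells and 50.7 and 59.5 CPM in siControl cells. PSMB9 had 67.1 and 46.5 CPM in HMOX1si1 cells, 55.1 and 83.0 CPM in HMOX1si2 cells and 71.3 and 79.9 CPM in siControl cells. PSMB9 is its counterpart. PSMB6 overlapped the controls with both siRNAs, while PSMB9 lay below them in the HMOX1si1 libraries. The ratio of PSMB9 to PSMB6 per kilobase was 1.35 and 1.26 with HMOX1si1, 1.38 and 1.52 with HMOX1si2 and 1.53 and 1.46 in siControl cells. In this ratio both HMOX1si1 libraries and 1 HMOX1si2 library lay below the controls.

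PSMB7 is the trypsin-like subunit. PSMB7 had 153 and 125 CPM in HMOX1si1 cells, 109 and 130 CPM in HMOX1si2 cells and 150 and 163 CPM in siControl cells. PSMB10 had 112 and 85.7 CPM in HMOX1si1 cells, 106 and 146 CPM in HMOX1si2 cells and 145 and 165 CPM in siControl cells. PSMB10 is its counterpart. PSMB7 was below the controls with HMOX1si2 and PSMB10 with HMOX1si1, and each overlapped them with the other siRNA. PSMB10 over PSMB7 was 0.589 and 0.551 with HMOX1si1, 0.783 and 0.903 with HMOX1si2 and 0.776 and 0.812 in siControl cells. The HMOX1si1 ratios were the lowest of the 6 libraries. PSMB10 had a log2 fold change of −0.65 with HMOX1si1 (SE 0.20, adjusted p = 0.0875) and −0.30 with HMOX1si2 (SE 0.20, adjusted p = 0.374), and PSMB9 was at −0.41 with HMOX1si1 (adjusted p = 0.301) and −0.13 with HMOX1si2 (adjusted p = 0.771). None of the 3 immunoproteasome subunits passed the test in any comparison by edgeR, with PSMB10 under an unadjusted p of 0.05 with HMOX1si1 and on average, and DESeq2 called PSMB10 with HMOX1si1. The TTTCGCTTTC sites shown lie in the promoter windows of PSMB8 and PSMB10, and the PSMB9 window holds none of that motif.

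In the 19S regulatory particle, which feeds unfolded substrates to the core, the fold changes lay nearer to 0. Of its 17 subunits none passed edgeR's quasi-likelihood test in any comparison. An unadjusted p under 0.05 was found for 1 of the 17 with HMOX1si1, 5 with HMOX1si2 and 4 on average. Of all genes, 30.8%, 25.9% and 31.3% were under that p in the same comparisons. DESeq2 called PSMC1, PSMC3 or PSMD14 in some comparisons, and 2590, 1845 and 2612 of all 20263 genes with HMOX1si1, with HMOX1si2 and on average. The median average log2 fold change was −0.21 over the ATPases, −0.15 over the other base subunits and −0.06 over the lid. PSMC3, an ATPase of the base, had 122 and 115 CPM in HMOX1si1 cells, 88.6 and 102 CPM in HMOX1si2 cells and 92.1 and 89.0 CPM in siControl cells. The HMOX1si1 libraries were the highest of the 6, with a log2 fold change of 0.39 (SE 0.10, adjusted p = 0.0669), and the HMOX1si2 libraries overlapped the controls. PSMC1 had 68.9 and 61.1 CPM in HMOX1si1 cells, 58.2 and 61.5 CPM in HMOX1si2 cells and 80.4 and 73.7 CPM in siControl cells. This other ATPase lay below the controls in all 4 HMOX1 siRNA libraries (average log2 fold change −0.30, SE 0.09, adjusted p = 0.0849). PSMC1 shares 3654 exon bases with NRDE2 on the opposite strand, and the counting is not stated to use strand.

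The scaffolds of the base are PSMD1 and PSMD2. PSMD1 had 86.8 and 82.1 CPM in HMOX1si1 cells, 72.2 and 79.5 CPM in HMOX1si2 cells and 89.8 and 98.5 CPM in siControl cells. PSMD2 had 279 and 224 CPM in HMOX1si1 cells, 200 and 228 CPM in HMOX1si2 cells and 262 and 253 CPM in siControl cells. PSMD1 lay below the controls in all 4 HMOX1 siRNA libraries, and PSMD2 overlapped them with HMOX1si1. In the lid, PSMD14 is the deubiquitinase that strips ubiquitin chains, and PSMD12 is a structural subunit. PSMD14 had 75.9 and 60.1 CPM in HMOX1si1 cells, 45.3 and 59.6 CPM in HMOX1si2 cells and 73.6 and 79.0 CPM in siControl cells. PSMD12 had 39.1 and 42.1 CPM in HMOX1si1 cells, 35.6 and 35.7 CPM in HMOX1si2 cells and 41.8 and 46.0 CPM in siControl cells. For both, the HMOX1si2 libraries lay below the controls and the HMOX1si1 libraries overlapped them. The lid subunits PSMD3 and PSMD11 had average log2 fold changes of 0.02 (95% interval −0.21 to 0.26) and 0.01 (−0.17 to 0.20).

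PSME1 and PSME2 together form the interferon-induced activator PA28. PSME1 had 195 and 159 CPM in HMOX1si1 cells, 185 and 240 CPM in HMOX1si2 cells and 214 and 251 CPM in siControl cells. PSME2 had 119 and 100 CPM in HMOX1si1 cells, 100 and 132 CPM in HMOX1si2 cells and 125 and 147 CPM in siControl cells. The HMOX1si1 libraries of both lay below the controls, the HMOX1si2 libraries overlapped them, and no activator passed the test by edgeR or by DESeq2 in any comparison, nor was any under an unadjusted p of 0.05. The windows of PSME1 and PSME2 hold both motifs shown. PSME3, the nuclear activator PA28-gamma, singled out after its values were seen, had 80.2 and 25.0 CPM in HMOX1si1 cells, 62.3 and 63.8 CPM in HMOX1si2 cells and 75.3 and 94.3 CPM in siControl cells. The second HMOX1si1 library stood far below the other 5. The HMOX1si1 log2 fold change of PSME3 was −0.69 with both libraries (SE 0.48, adjusted p = 0.372), −1.77 without the first (adjusted p = 0.0375) and −0.08 without the second (adjusted p = 0.836). PSME4 had an average log2 fold change of −0.04 (95% interval −0.24 to 0.17).

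POMP is the chaperone that guides assembly of the core. POMP had 42.0 and 31.8 CPM in HMOX1si1 cells, 26.0 and 40.3 CPM in HMOX1si2 cells and 45.5 and 51.5 CPM in siControl cells. Every HMOX1 siRNA library lay below the controls (average log2 fold change −0.47, SE 0.20, adjusted p = 0.170).

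Summed over all members, the level per kilobase was 88.8% and 75.7% of the siControl mean in the HMOX1si1 libraries, 75.8% and 91.8% in the HMOX1si2 libraries and 94.0% and 106% in the siControl libraries. All 4 HMOX1 siRNA libraries lay below both controls, and the gap between the libraries of each siRNA was wider than the gap from the nearer of them to the lower control. For the 14 constitutive core subunits the sums were 83.3% and 70.8% in HMOX1si1, 69.5% and 84.4% in HMOX1si2 and 93.5% and 106% in siControl. For the 19S particle they were 102% and 94.7% in HMOX1si1, 87.3% and 97.7% in HMOX1si2 and 96.0% and 104% in siControl, so that the groups overlapped. The 3 immunoproteasome subunits summed to 83.8% and 67.3% in HMOX1si1, 75.5% and 107% in HMOX1si2 and 94.4% and 106% in siControl. The 4 activators summed to 87.0% and 62.9% in HMOX1si1, 77.9% and 95.9% in HMOX1si2 and 91.7% and 108% in siControl. In both classes the HMOX1si1 libraries were below the controls and the HMOX1si2 libraries overlapped them. The summed 19S level over the summed constitutive core level was 0.670 and 0.734 in HMOX1si1 cells, 0.691 and 0.635 in HMOX1si2 cells and 0.564 and 0.537 in siControl cells. This ratio was higher in each HMOX1 siRNA library than in both siControl libraries; the members were chosen with results known, so it carries no test.

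**Figure D4:**
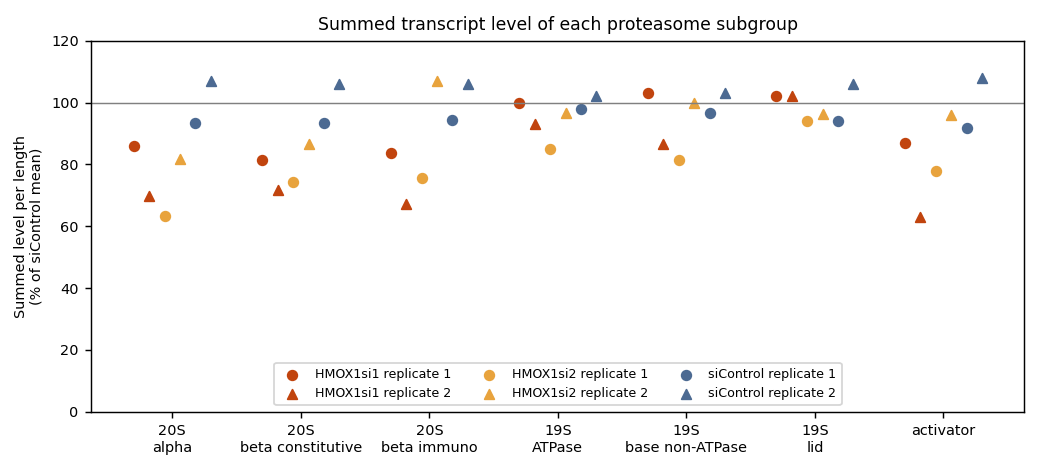
Summed level per kilobase of 7 subgroups of members in each library, as a percentage of the siControl mean, with circles for replicate 1 and triangles for replicate 2 of HMOX1si1, HMOX1si2 and siControl. The alpha sums lie at 63.2% to 85.9% and the constitutive beta sums at 71.7% to 86.5% in the HMOX1 siRNA libraries, below both controls, and the 19S sums overlap the controls, except that both ATPase sums with HMOX1si2 (85.1% and 96.7%) lie below both controls.

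The members also differed mostly in the same direction between the 2 libraries of a group. In HMOX1si1 cells 31 of 39 members were lower in the second library than in the first (median log2 ratio −0.17), as were 48.2% of all genes. In HMOX1si2 cells 32 of 39 were lower in the first library and 7 in the second, where 51% of all genes were lower. The members' median log2 ratio of the second to the first was 0.20. In siControl cells 34 of 39 were lower in the first library, with a median of 0.14, and 5 in the second, where 49.3% of all genes were lower. Over all genes the medians were 0.010 in HMOX1si1, −0.006 in HMOX1si2 and 0.003 in siControl cells. The members' median log2 fold changes against siControl, −0.22 with HMOX1si1 and −0.27 with HMOX1si2, stand beside these gaps between replicates.

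Fold changes varied with transcript length, and so did the gaps between the 2 libraries of a group. Core subunit transcripts are short, with a median of 1012.5 bases over the 14 constitutive subunits, against 1954 over the 19S subunits and 2754 over all genes tested. Among genes in the members' range of expression, the median average log2 fold change was −0.28 over the 288 genes of up to 1000 bases, −0.11 over the 961 of 1001 to 2000 bases, 0.02 over the 1954 of 2001 to 4000 bases and 0.14 over the 1871 longer ones. The members' medians in these classes were −0.28 (9 members), −0.21 (20 members), −0.23 (7 members) and −0.21 (3 members). In the shortest class both average medians round to −0.28, while with each siRNA on its own the members' median was lower, at −0.41 against −0.32 for the class with HMOX1si1 and −0.32 against −0.24 with HMOX1si2. In the other 3 classes the members' average median lay below that of the class. Between the 2 libraries of a group, the medians over genes in this range of expression also ran with length. In siControl cells the median log2 ratio of the second to the first library went from 0.18 at up to 1000 bases to −0.12 above 4000 bases. It went from −0.10 to 0.04 in HMOX1si1 cells and from 0.13 to −0.065 in HMOX1si2 cells. The part of length in the members' fold changes was not tested, and the length classes were chosen with the data in view. PSMB2, at 2701 bases, and PSMA5, at 3729 bases, are long among the core subunits. By edgeR's quasi-likelihood test, their average log2 fold changes were −0.52 (adjusted p = 0.0202) and −0.35 (adjusted p = 0.292). PSMB2 is named here with its call known and PSMA5 did not pass the threshold, so these 2 values are no test of length.

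**Figure D5:**
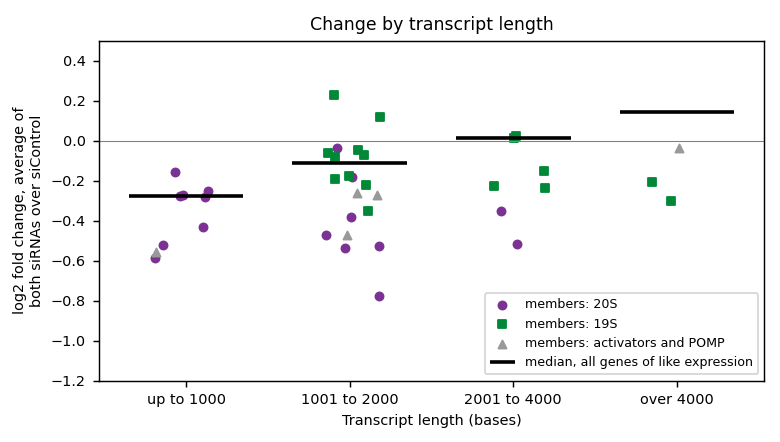
Average log2 fold change of both HMOX1 siRNAs against siControl in 4 classes of transcript length in bases, for the 39 members (points, spread sideways for clarity) by subunit class, with a line at the median of all genes in the members' range of expression. That median runs from −0.28 at up to 1000 bases to 0.14 above 4000 bases, and the members' medians lie at or below it.

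Around the members, 18 of 20 further subunits, chaperones and associated proteins were tested, and none passed the test in any comparison by edgeR. PSMA8 and PSMB11, the testis and thymus forms of core subunits, had no count in any library. Of the 18 genes, 4 were under an unadjusted p of 0.05 with HMOX1si1, 4 with HMOX1si2 and 5 on average. Of all genes, 30.8%, 25.9% and 31.3% were under that p in these comparisons. DESeq2 called 1 of the 18 with HMOX1si1, 3 with HMOX1si2 and 3 on average, against 2590, 1845 and 2612 of all 20263 genes. The median average log2 fold change of the 18 genes was −0.09. PAAF1, a chaperone of the 19S base, had 14.6 and 13.4 CPM in HMOX1si1 cells, 14.5 and 16.3 CPM in HMOX1si2 cells and 10.6 and 10.7 CPM in siControl cells (average log2 fold change 0.46, adjusted p = 0.0519). PAAF1 was above the controls in all 4 HMOX1 siRNA libraries. PSMD10, the base chaperone gankyrin, was at −0.49 on average (adjusted p = 0.0901), and ECPAS, an adaptor and scaffold of the proteasome, at 0.28 (adjusted p = 0.0773).

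In the route by which NFE2L1 controls proteasome genes, 12 genes were tested. EdgeR called 2 with HMOX1si1 (1 higher, 1 lower), 0 with HMOX1si2 and 1 on average, against 10.0%, 5.73% and 10.1% of all genes. An unadjusted p under 0.05 was found for 6, 3 and 2 of the 12 in these comparisons. The shares of all genes under that p were 30.8%, 25.9% and 31.3%. NFE2L1, the transcription factor itself, had 198 and 219 CPM in HMOX1si1 cells, 198 and 189 CPM in HMOX1si2 cells and 135 and 157 CPM in siControl cells. Every HMOX1 siRNA library lay above both controls. NFE2L1 rose with HMOX1si1 (log2 fold change 0.51, SE 0.11, adjusted p = 0.0414, edgeR's quasi-likelihood test). Averaged over both siRNAs it rose by 0.46 (SE 0.10, adjusted p = 0.0411), and it was at 0.41 with HMOX1si2 (adjusted p = 0.0905). Both NFE2L1 calls ended without any 1 of the 6 libraries, with average log2 fold changes of 0.35 to 0.58 and adjusted p of 0.0511 to 0.153 on average. SEL1L, a scaffold of the ligase that retrieves NFE2L1 and misfolded proteins from the endoplasmic reticulum, had 58.0 and 54.3 CPM in HMOX1si1 cells, 106 and 108 CPM in HMOX1si2 cells and 95.4 and 75.2 CPM in siControl cells. It fell with HMOX1si1 (−0.60, adjusted p = 0.0429) and was higher with HMOX1si2 than with HMOX1si1 by 0.93 (adjusted p = 0.0230). Its HMOX1si1 call ended without any 1 of the 6 libraries (log2 fold change −0.43 to −0.76, adjusted p 0.0506 to 0.212) and with library totals (0.0550), and the difference between siRNAs lost its call without any 1 of the 4 HMOX1 siRNA libraries (0.0698 to 0.139). VCP, the ATPase that extracts such proteins from the membrane, was at −0.37 on average (adjusted p = 0.0969), and DDI2, the protease that cleaves NFE2L1, at 0.30 (adjusted p = 0.165). Of the 12 genes of this route, DESeq2 called 4 with HMOX1si1, 1 with HMOX1si2 and 2 on average. Of all 20263 genes it called 2590, 1845 and 2612 in these comparisons. The list's median average log2 fold change was −0.02.

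Of the 15 genes for ubiquitin, its E1 enzymes and shuttle factors, SQSTM1 was the single gene to pass edgeR's test. An unadjusted p under 0.05 was found for 1 of the 15 with HMOX1si1, 4 with HMOX1si2 and 3 on average. The shares of all genes under that p were 30.8%, 25.9% and 31.3%. DESeq2 called 0 genes of the list with HMOX1si1, 3 with HMOX1si2, 2 on average and 2 between the siRNAs. Of all 20263 genes it called 2590, 1845, 2612 and 1367 in these comparisons. SQSTM1, the receptor that carries ubiquitylated proteins to autophagosomes, had 1400 and 1510 CPM in HMOX1si1 cells, 2150 and 2060 CPM in HMOX1si2 cells and 1190 and 1230 CPM in siControl cells, so that the 3 groups did not overlap. By edgeR's quasi-likelihood test it rose with HMOX1si2 (log2 fold change 0.80, SE 0.09, adjusted p = 0.0176). Averaged over both siRNAs it rose by 0.53 (adjusted p = 0.0188). It was at 0.26 with HMOX1si1 (adjusted p = 0.101), and was higher with HMOX1si2 than with HMOX1si1 by 0.53 (adjusted p = 0.0331). Without 1 library its average log2 fold change was 0.50 to 0.56 (adjusted p 0.0274 to 0.115), over 0.05 without either siControl or either HMOX1si1 library. The HMOX1si2 call ended without either siControl library (adjusted p 0.0896 and 0.114) and without the first HMOX1si2 library (0.0659), and the difference between the siRNAs lost its call without each of the 6 libraries in turn (0.48 to 0.59, adjusted p 0.0719 to 0.229). It shares 1384 exon bases with MRNIP on the opposite strand. UBB, a ubiquitin gene, was at −0.46 on average (adjusted p = 0.151). The list's median was 0.02.

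Of the 14 genes for interferon signalling and peptide loading, which serve the same pathway as the immunoproteasome, none passed the test against siControl by edgeR, with 3 under an unadjusted p of 0.05 with HMOX1si1, 2 with HMOX1si2 and 0 on average. Of all genes, 30.8%, 25.9% and 31.3% were under that p in these comparisons. DESeq2 called 1 of the 14 with HMOX1si1, 1 with HMOX1si2 and 0 on average, against 2590, 1845 and 2612 of all 20263 genes. ERAP1, the peptidase that trims peptides for MHC class I, had 93.4 and 90.6 CPM in HMOX1si1 cells, 157 and 137 CPM in HMOX1si2 cells and 113 and 95.2 CPM in siControl cells. It was higher with HMOX1si2 than with HMOX1si1 by a log2 difference of 0.68 (SE 0.12, adjusted p = 0.0435), and this call ended without any 1 of the 6 libraries (0.57 to 0.77, adjusted p 0.0692 to 0.220). The 3 genes with the smallest p on average were IRF9 (−0.77, adjusted p = 0.161), ERAP2 (0.50, adjusted p = 0.181) and NLRC5 (−0.22, adjusted p = 0.198), and the list's median was −0.06.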

How the data were processed

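The 6 libraries of AsPC-1 cells are of polyadenylated RNA. The table deposited by the authors is taken to hold expected counts per gene, a unit read from the values, made by an aligner and a counting tool not given in the sources used here. All values are whole, so rounding changed nothing; 71.9% of the values between 1 and 10 are even, and 49.9% of the values above 100, so the way of counting is not settled. The submitters' processing notes name mouse builds although all 20263 identifiers are human, so the build used is not known. Symbols matched for 20148 genes and GENCODE 29 (GRCh38) for 20224; coordinates, exon overlaps and transcript lengths come from it (the shortest principal transcript, otherwise the exon union). Counts are taken to be without strand, since no source states it.

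Genes were kept by filterByExpr (13769), scaled by TMM and fitted, all 6 libraries together with a mean for each group, in edgeR 4.0.16 (R 4.3.3, limma 3.58.1; glmQLFit and glmQLFTest). Adjusted p-values are Benjamini-Hochberg over all genes tested, with a threshold of 0.05; standard errors are the log2 fold change over the root of F. The common dispersion was a biological coefficient of variation of 0.165, with 3.11 prior degrees of freedom. CPM are TMM-scaled, and levels between genes are CPM per 1000 bases. Alternatives were DESeq2 1.42.0, no filter, library totals, the replicate number as a block, each library left out, and, added after seeing the data, summed overlapping gene models; the fit was tested on simulated data. The labels do not say whether replicate numbers pair the libraries. Over all genes, the gaps between replicates correlated at 0.01, 0.03 and −0.15 between groups. These values show no strong shared replicate effect, but cannot tell whether same-numbered libraries were handled together. Replicates differed by more than sampling noise (chi-square per degree of freedom of 39.1 to 87.3). Counting noise is small at these depths, and intervals cover the spread between libraries.

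The members, lists and motifs were chosen with earlier results of these data known. Values per library are given for members past the threshold in any comparison, the catalytic pairs and the 2 members of the smallest p in each subgroup; of each list, genes past the threshold and up to 3 of the smallest p on average are named, except 1 gene that is not reported here. Promoter windows are from RefSeq. No set test was run.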

Additional observations from a re-analysis of the deposited data

Results flagged for a closer look

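The effects of the 2 siRNAs differed in 5 genes of those described, by the test of HMOX1si2 against HMOX1si1 in edgeR (Benjamini-Hochberg adjusted over all genes). PSMB2 was higher with HMOX1si2 by a log2 difference of 0.52 (adjusted p = 0.0396), in both HMOX1si2 libraries over both HMOX1si1 libraries. SEL1L was higher with HMOX1si2 by 0.93 (adjusted p = 0.0230), with siControl between the siRNAs. SQSTM1 was higher with HMOX1si2 by 0.53 (adjusted p = 0.0331). ERAP1 was higher with HMOX1si2 by 0.68 (adjusted p = 0.0435). HMOX1, the target, was lower with HMOX1si2, with a log2 difference of −1.10 (adjusted p = 0.0284). Without 1 library in turn, the SEL1L call ended in 4 of the 6 fits and the other 4 calls in all 6, with the direction kept (HMOX1 adjusted p 0.0789 to 0.141). Groups of 2 libraries are too small to test a single library as an outlier.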

How the results depend on the processing

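No member called in a comparison changed direction under any alternative run. Of the 39 members, DESeq2 called 7 with HMOX1si1, 5 with HMOX1si2 and 7 on average. Of all 20263 genes, it called 2590 with HMOX1si1, 1845 with HMOX1si2, 2612 on average and 1367 between the siRNAs. The 20263 include genes with few or no counts, while all 39 members are among the 13769 that passed edgeR's filter. With the replicate number as a block (replicate block), members called were 1 with HMOX1si1, 0 with HMOX1si2, 0 on average and 0 between the siRNAs. All genes called were then 481 with HMOX1si1, 45 with HMOX1si2, 255 on average and 87 between the siRNAs. Whether same-numbered libraries were handled together is not stated, and the correlations of 0.01, 0.03 and −0.15 between the groups' replicate gaps cannot settle it. Library totals and summed overlapping models each left 1 member called with HMOX1si2. Leaving out 1 library gave 0 to 3 members with HMOX1si1, 0 to 1 with HMOX1si2, 0 to 5 on average and 0 to 0 between the siRNAs, and over all genes 0 to 1492 with HMOX1si1, 0 to 362 with HMOX1si2, 0 to 1594 on average and 19 to 204 between the siRNAs. The 0 counts over all genes came without a siControl library (edgeR; unadjusted p under 0.05 in 2409 to 3459 genes). The cause was not tested. The members' average log2 fold change was below 0 in 32 to 37 of 39 under every alternative, with a median from −0.17 without the second siControl library to −0.33 without the first. Summed levels per library moved by less than the spread between replicates with library totals. With 2 libraries a group, 1 library can end any single call, and depth, at 36144330 counts or more per library, limits the members little.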
